A study of Mus musculus with 4 samples.

Results

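The RNA exosome was examined in mouse embryonic fibroblasts (MEFs) without and with Pf1, through the 10 subunit genes Exosc1, Exosc2, Exosc3, Exosc4, Exosc5, Exosc7, Exosc8, Exosc9, Exosc10 and Dis3. Members were all probe sets whose only gene in the platform annotation was 1 of these subunits, which gave 19 of 45037 probe sets and 10 of 18193 genes. Pf1 -/- lines 7706-2 and 7706-4 (knockout, KO; KO lines 2 and 4 from here on) were compared with lines 7706-5 and 7706-6 (wild type, WT; WT lines 5 and 6), whose genotype the labels write as Pf+/+, with 1 array per line. All were primary cells from the torso of embryos of embryonic day 13.5 or 14.5, with heads and red organs removed, grown at 6% oxygen and used at passage 2 to 3. The labels do not tie a day or passage to a line. The labels call the KO and WT cultures lines and do not say that each came from a separate embryo, so a p-value covers only how much these lines vary. Pf1, the product of Phf12, is a PHD finger protein that works with Sin3 corepressors, and the series asks about its role in keeping the nucleolus intact.

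The RNA exosome is the main machine that degrades and trims RNA from its 3′ end. A ring of subunits related to bacterial RNase PH and a cap of RNA-binding subunits form a channel that has no catalytic activity of its own in mammals, and the ribonucleases Dis3 and Exosc10 do the cutting. In the nucleolus, where Exosc10 is concentrated, the complex trims precursors of ribosomal RNA and small nucleolar RNA, in the nucleoplasm it removes short-lived noncoding transcripts, and in the cytoplasm it degrades messenger RNA.

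Exosc9, a ring subunit, and Dis3, the processive ribonuclease, rose in KO lines, by 1.67-fold and 1.56-fold (log2 differences of 0.74 ± 0.0949 SE and 0.64 ± 0.133 SE, n = 2 lines per genotype; limma adjusted p = 0.0188 and 0.0437). Of the 10 genes, 2 rose, 0 fell and 8 did not pass the test. Over all genes, 5.21% rose and 6.95% fell. The median difference of the 10 genes was 0.17 on the log2 scale, against -0.0027 over all genes, and 8 of the 10 differences were positive, against 49.2% of all genes. Both KO lines lay above both WT lines at 5 of the 10 genes (28.7% of all genes) and below them at 0 (29.5% of all genes). Before adjustment, 3 of the 10 had p under 0.05 with KO higher and 0 with KO lower (14.3% and 15.2% of all genes). With 1 line left out, limma called 0 of the 10 genes in each case, while it called between 0 and 321 of all genes. An exact permutation test of 2 against 2 lines cannot go below p = 0.333 and was not used; the limma fit borrows the spread of all genes.

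All values below are deposited log2 values in which the median of each probe set over the 4 arrays is 0. They show how the lines differ, and hold no expression level, so subunits cannot be ranked by abundance and detection above background cannot be given. Differences are KO minus WT on the log2 scale with the standard error (SE) of the moderated fit, and a gene was called at a Benjamini-Hochberg adjusted p under 0.05 over all 18193 genes. Phf12 was checked first: its probe set 1434922_at stood at -0.37 and -0.41 in KO lines 2 and 4, and at 0.56 and 0.37 in WT lines 5 and 6 (limma adjusted p = 0.0213 over probe sets), while 1453579_at did not pass (0.012, adjusted p = 0.965). As the mean of both probe sets, Phf12 differed by -0.42 ± 0.0934 SE and did not pass (limma adjusted p = 0.0504 over genes). The labels do not say which part of the gene was deleted, so neither probe set is sure to test the labels.

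**Figure D1:**
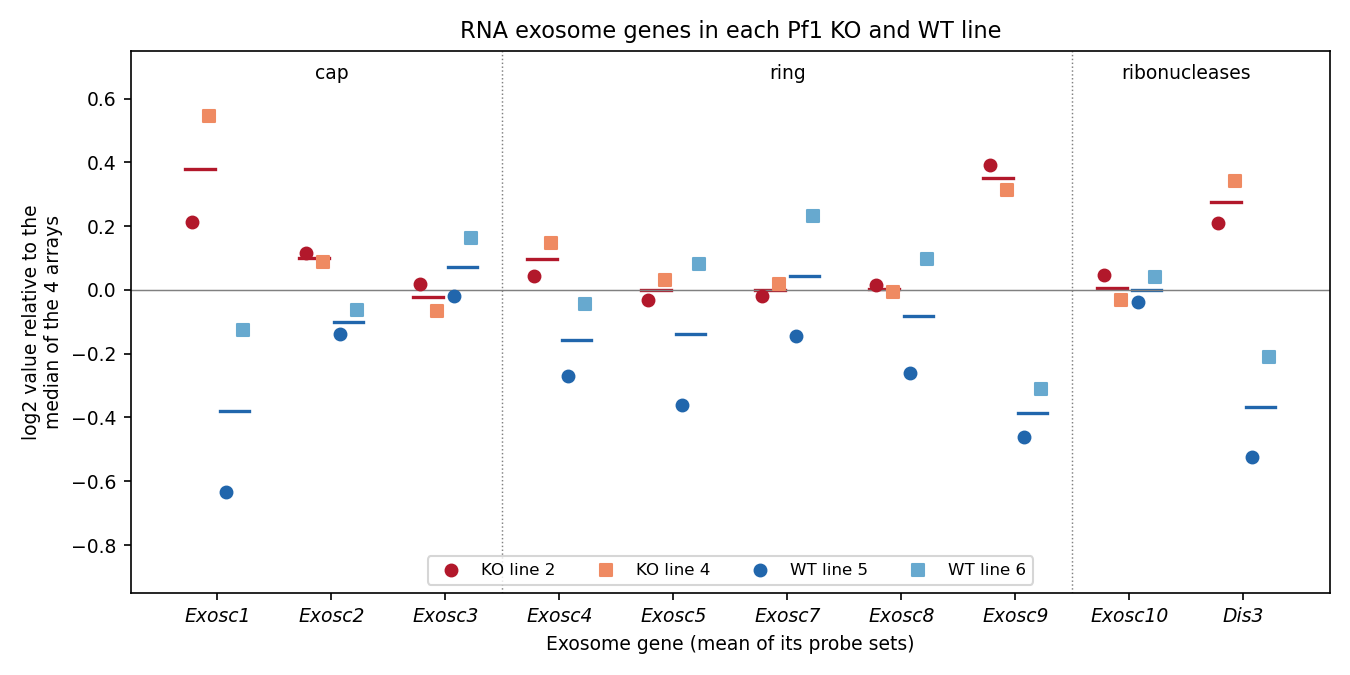
The log2 value of each exosome gene (mean of its probe sets, relative to the median of the 4 arrays) in KO lines 2 and 4 and WT lines 5 and 6, with short bars for the mean of each genotype. KO and WT lines are apart at Exosc1, Exosc2, Exosc4, Exosc9 and Dis3. WT line 5 is the lowest line at 9 of the 10 genes (30.4% of all genes).

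Promoter sequences are shown for the subunits whose KO lines both lay above both WT lines and which had an entry in the RefSeq promoter table (GRCm38.p6), to let the reader see what letters these genes share near their start. Each runs 5′ to 3′ on the gene's strand, from 250 bases before a transcript start to 50 bases from it on. Capitals mark matches on either strand to CCAAT, the CCAAT box bound by NF-Y, and to CCGGAAG, an ETS factor motif. The Exosc1 sequence lies at chr19:41933265-41933564 on the minus strand, the Exosc2 sequence at chr2:31670465-31670764 on the plus strand and the Dis3 sequence at chr14:99099721-99100020 on the minus strand.
Exosc1 promoter: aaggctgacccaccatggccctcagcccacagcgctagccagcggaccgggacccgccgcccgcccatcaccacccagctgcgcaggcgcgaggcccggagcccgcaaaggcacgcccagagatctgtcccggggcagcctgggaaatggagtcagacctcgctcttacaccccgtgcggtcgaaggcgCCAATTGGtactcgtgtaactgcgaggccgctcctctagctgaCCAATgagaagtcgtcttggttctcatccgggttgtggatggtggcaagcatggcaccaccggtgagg
Exosc2 promoter: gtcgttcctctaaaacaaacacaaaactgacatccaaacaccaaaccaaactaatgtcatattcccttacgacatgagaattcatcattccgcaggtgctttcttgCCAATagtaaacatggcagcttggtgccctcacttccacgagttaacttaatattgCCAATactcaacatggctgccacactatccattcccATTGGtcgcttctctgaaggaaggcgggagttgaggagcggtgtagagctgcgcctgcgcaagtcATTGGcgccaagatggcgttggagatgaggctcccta
Dis3 promoter: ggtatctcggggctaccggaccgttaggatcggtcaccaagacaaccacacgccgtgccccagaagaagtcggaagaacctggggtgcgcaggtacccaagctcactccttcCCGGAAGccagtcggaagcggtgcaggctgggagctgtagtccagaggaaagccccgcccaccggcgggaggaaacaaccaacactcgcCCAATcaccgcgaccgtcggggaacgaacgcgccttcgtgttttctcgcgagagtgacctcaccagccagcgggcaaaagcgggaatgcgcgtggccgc
CCAAT occurred 3 times in the Exosc1 window, with a forward and a reverse match that overlap by sharing letters, 4 times in that of Exosc2 and 1 time in that of Dis3. The Dis3 window also held 1 match to CCGGAAG.

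Of the 10 members, 8 had a promoter entry, with 9 windows in all. Exosc4 and Exosc9, whose KO lines also lay above both WT lines, had none. CCAAT was present in 4 of the 9 windows, against 37.4% of all 32851 windows of the same length. By gene, it was present in all 3 of the genes shown and in 1 of the 5 other members with an entry (Exosc5). The 3 genes were picked by their expression values, and no test compared the groups. CCGGAAG was present for Dis3, Exosc3 and Exosc10, against 8.86% of all windows. The E-box CACGTG (7.15% of all windows) was found for Exosc5, and GCATGCG, a core of the NRF1 motif (3.58%), for Exosc5 and Exosc10. ATGGCGG, a core of the YY1 motif (4.05%), and the TATA box TATAAA (13.6%) were found for 0 of the 8 genes. All motifs were searched on both strands. None of these matches overlapped a match to another of the 6 motifs. The matches describe letters in these windows, and the motifs were searched with the expression differences known.

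The cap subunits bind RNA at the mouth of the channel. Exosc1 stood at 0.21 and 0.55 in KO lines 2 and 4, and at -0.63 and -0.13 in WT lines 5 and 6, as the mean of its 3 probe sets. The genotypes did not overlap, but the WT lines were 0.51 apart, and the difference of 0.76 ± 0.206 SE, the largest of the 10 genes, did not pass (limma adjusted p = 0.0787). Its probe sets disagreed. Probe set 1452012_a_at stood at 0.40 and 0.39 in KO lines 2 and 4, against -0.86 and -0.39 in WT lines 5 and 6, and was called higher in KO lines in the fit over all probe sets (2.02-fold, difference 1.02 ± 0.172 SE, limma adjusted p = 0.0338). Probe set 1453359_at, at 0.52 and 0.22 in KO lines against -0.81 and -0.22 in WT lines, did not overlap between genotypes either but missed the threshold (0.88 ± 0.224, adjusted p = 0.078). The third, 1432052_at, stood apart, with -0.28 in KO line 2 and 1.03 in KO line 4, against -0.23 and 0.23 in WT lines (0.38 ± 0.438, adjusted p = 0.674). KO line 4 alone was high there, and without that line the difference of this probe set was -0.28. When Exosc1 was represented by its most variable probe set, it was called (adjusted p = 0.0259).

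Exosc2, a cap subunit that contacts RNA entering the ring, stood at 0.12 and 0.086 in KO lines 2 and 4, and at -0.14 and -0.062 in WT lines 5 and 6. Every KO value was above every WT value, with a difference of 0.20 ± 0.0824 SE that did not pass (limma adjusted p = 0.188, 95% interval -0.011 to 0.41). Its probe set 1426630_at carried most of this (0.32 ± 0.102), and 1446994_at differed by 0.078 ± 0.0955. Exosc3, the remaining cap subunit, whose human gene is mutated in pontocerebellar hypoplasia, stood at 0.019 and -0.065 in KO lines, against -0.019 and 0.16 in WT lines. The genotypes overlapped, and its difference of -0.095 ± 0.101 SE (95% interval -0.35 to 0.16) was the lowest of the 10.

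The ring subunits were represented by Exosc4, Exosc5, Exosc7, Exosc8 and Exosc9. Exosc9, known in humans as an autoantigen of myositis and scleroderma overlap patients, stood at 0.39 and 0.31 in KO lines 2 and 4, and at -0.46 and -0.31 in WT lines 5 and 6. The lines of each genotype lay within 0.15 of each other, closer than the gap between the genotypes, and its only probe set, 1418462_at, was also called in the fit over all probe sets (adjusted p = 0.0245). Exosc9 was the member with the smallest p in both fits. Leaving out any 1 line kept its difference in the range 0.66 to 0.81, while the limma adjusted p ranged from 0.0527 to 0.125.

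Exosc4 stood at 0.045 and 0.15 in KO lines 2 and 4, and at -0.27 and -0.045 in WT lines 5 and 6. KO lines lay above WT lines, with a difference of 0.25 ± 0.111 SE that did not pass (limma adjusted p = 0.211). Its probe sets differed by 0.46 ± 0.121 (1460679_at), 0.28 ± 0.127 (1424685_at) and 0.021 ± 0.112 (1437712_x_at), and 0 of the 3 passed. The last is of the class whose probes can match other transcripts, and without it the gene's difference was 0.37.

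Exosc5, Exosc7 and Exosc8, which sit in the same ring, overlapped between the genotypes. Exosc5 stood at -0.030 and 0.030 in KO lines 2 and 4, and at -0.36 and 0.082 in WT lines 5 and 6 (difference 0.14 ± 0.161 SE, 95% interval -0.27 to 0.55). Exosc7 stood at -0.018 and 0.018 in KO lines, and at -0.14 and 0.23 in WT lines (-0.044 ± 0.143, interval -0.41 to 0.32). Exosc8 stood at 0.014 and -0.0064 in KO lines, and at -0.26 and 0.098 in WT lines (0.085 ± 0.138, interval -0.27 to 0.44). At all 3 genes the KO lines lay between the WT lines, with WT line 5 lowest and WT line 6 highest. Without WT line 5 the differences of Exosc5 and Exosc8 were -0.082 and -0.095, and without WT line 6 that of Exosc7 was 0.14.

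Exosc6 completes the ring in mouse and lies outside the 10 genes. Its probe set 1429322_at stood at 0.42 and -0.029 in KO lines 2 and 4, and at -0.69 and 0.029 in WT lines 5 and 6, overlapping, with a difference of 0.52 ± 0.277 SE (limma adjusted p = 0.292). A further probe set, 1435544_at, is annotated to both Aars, a tRNA synthetase gene, and Exosc6. It differed by 1.39 ± 0.203 (adjusted p = 0.0264 over probe sets), and the annotation used here does not say which of the genes it measures.

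Of the ribonucleases, Dis3 degrades RNA threaded through the channel and also cuts internally, and Exosc10 trims RNA with a distributive activity from the top of the cap. Dis3 stood at 0.21 and 0.34 in KO lines 2 and 4, and at -0.52 and -0.21 in WT lines 5 and 6. Every KO value was above every WT value. Its call rested on which fit was used, since its only probe set, 1426609_at, has the same values in both: the adjusted p was 0.0437 among all genes and 0.055 among all probe sets. Leaving out any 1 line gave differences of 0.48 to 0.80, while the limma adjusted p ranged from 0.0554 to 0.186.

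Exosc10 stood at 0.046 and -0.033 in KO lines 2 and 4, and at -0.037 and 0.039 in WT lines 5 and 6. The lines of both genotypes were interleaved, and the difference was 0.0055 ± 0.0856 SE (limma adjusted p = 0.98). Its 95% interval of -0.21 to 0.23 holds changes of either sign. All 4 of its probe sets lay between -0.017 and 0.026, and 0 of them separated the genotypes. The cytoplasmic relative of Dis3, Dis3l, had a difference of 0.045 ± 0.0901, with -0.023 and 0.11 in KO lines 2 and 4, and -0.028 and 0.023 in WT lines 5 and 6. The related nuclease gene Dis3l2 differed by 0.027 ± 0.095 over its 3 probe sets. Neither passed (adjusted p = 0.808 and 0.897), and no test compared Dis3 with them.

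**Figure D2:**
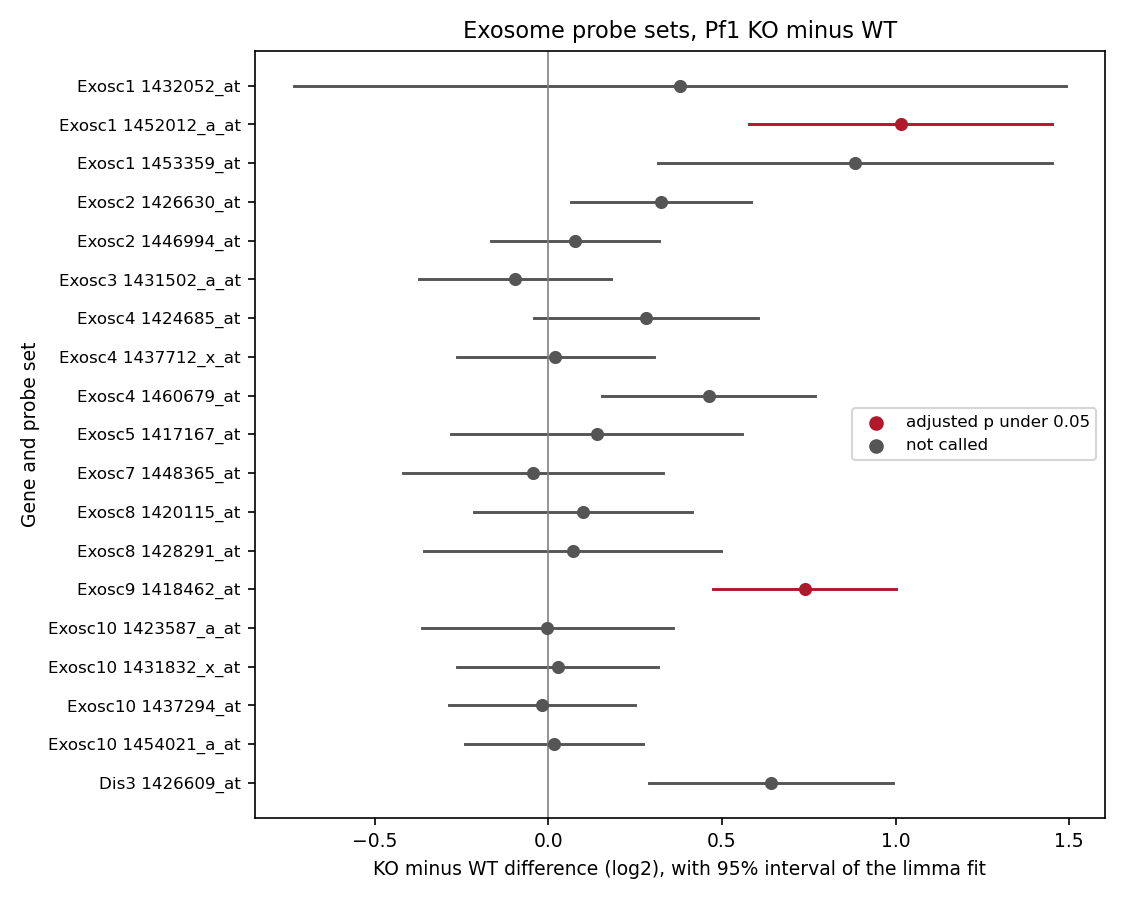
KO minus WT differences (log2) of the 19 exosome probe sets with the 95% interval of the limma fit over all probe sets, called ones in red. Exosc1 1452012_a_at (1.02) and Exosc9 1418462_at (0.74) were called, and the 4 Exosc10 probe sets lie around 0.

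By probe set, 2 of 19 were called higher in KO lines and 0 lower, against 3.92% and 4.40% of all 45037 probe sets (8.32% in either direction). Before adjustment (p under 0.05) the count was 6 of 19 higher and 0 lower, against 13.2% and 12.0% of all probe sets, or 25.2% in either direction. KO lines lay above WT lines at 8 of the 19 and below them at 0, against 27.8% and 26.3% of all probe sets. The difference was above 0 at 15 of the 19 (50.7% of all probe sets), with a median of 0.10, against 0.0031 over all probe sets. Probe sets of 1 gene were read from the same arrays and are not replicates. By role, limma called 0 of 3 cap genes, 1 of 5 ring genes and 1 of 2 ribonuclease genes in the gene fit, with median differences of 0.20, 0.14 and 0.32. In that fit, 5.21% of all genes were called higher and 6.95% lower.

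The WT lines differed from each other more than the KO lines did. WT line 5 lay below WT line 6 at 10 of the 10 exosome genes, against 51.5% of all genes. It was the lowest of the 4 lines at 9 of the 10, against 30.4% of all genes. The median gap between the lines of a genotype was 0.080 for KO and 0.27 for WT over the 10 genes, against 0.095 for KO and 0.12 for WT over all genes. Both KO lines lay above WT line 5 at 9 of the 10 genes (39.3% of all genes) and above WT line 6 at 5 (41.5% of all genes). Against WT line 6 alone the median difference of the 10 genes was 0.054, and against WT line 5 alone it was 0.31, so the size of the shift depended on the WT line. The differences of Exosc9 (0.66 and 0.81) and Dis3 (0.48 and 0.80) were positive against both.

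**Figure D3:**
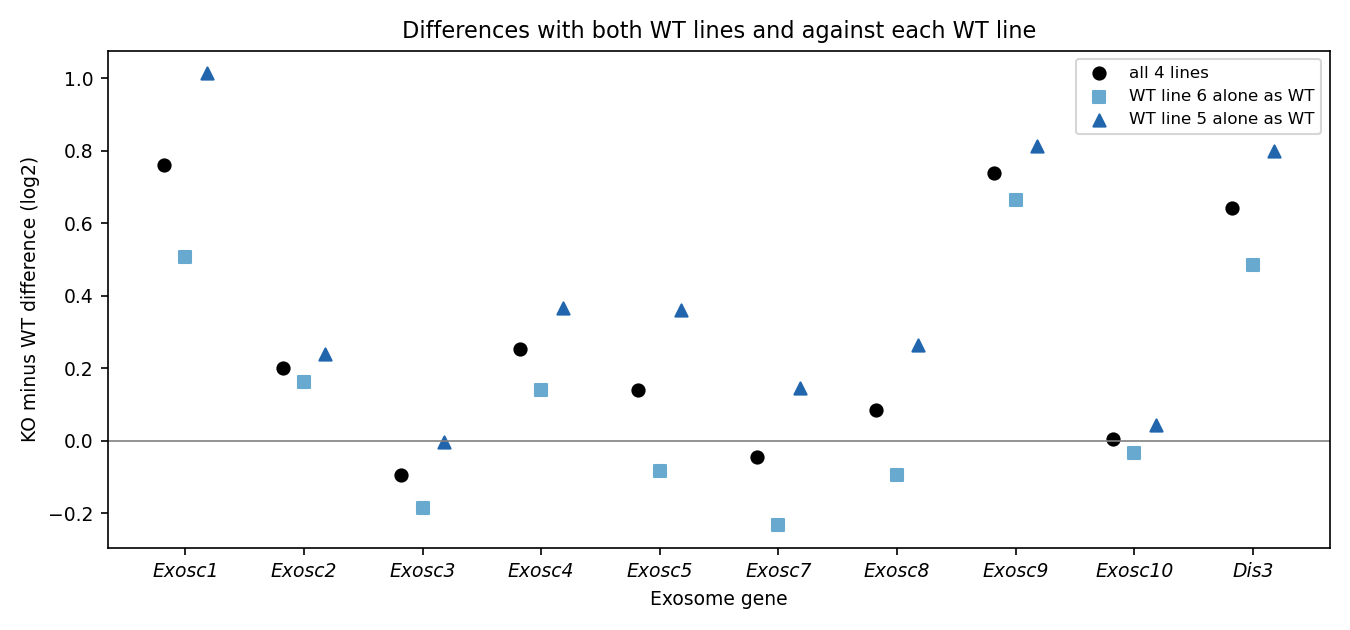
KO minus WT difference (log2) of each exosome gene with all 4 lines, against WT line 6 alone and against WT line 5 alone. Exosc1, Exosc2, Exosc4, Exosc9 and Dis3 are positive in all 3, and Exosc5, Exosc7, Exosc8 and Exosc10 change sign with the WT line.

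Other measures moved with the lines, and their part in the exosome differences was not tested. Of 7 proliferation genes (Mki67, Top2a, Cdk1, Mcm2, Mcm5, Pcna and Rrm2), limma called 0, with 4 higher at an unadjusted p under 0.05, and WT line 5 was lowest at 6. Their median stood at 0.090 and 0.17 in KO lines 2 and 4, and at -0.38 and -0.090 in WT lines 5 and 6. Over all genes the shares were 5.21% called higher, 6.95% called lower and 14.3% higher at an unadjusted p under 0.05. WT line 5 was the lowest line at 30.4% of all genes. Fibroblast markers fell at 5 of 10, smooth muscle markers rose at 6 of 7, and epithelial markers rose at 2 and fell at 1 of 6. Of the endothelial markers 1 of 4 fell, and limma called 0 of 6 macrophage, 0 of 5 skeletal muscle and 0 of 2 erythroid markers. Macrophage markers set the lines apart within genotypes, with medians of -0.27 and 0.53 in KO lines 2 and 4, and 0.31 and -1.48 in WT lines 5 and 6. Centred values hold no level, so the presence of any of these cell types, fibroblasts included, could not be checked. In cultures such as these, fewer cells of a type and less RNA per cell cannot be told apart.

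The genes nearest to the mean profile of the 10 exosome genes were found by Euclidean distance over the 4 arrays, where that mean was 0.10 and 0.14 in KO lines 2 and 4, and -0.28 and -0.014 in WT lines 5 and 6. They were Srsf3, a splicing factor gene (distance 0.041), Pdlim7 (0.042), Fabp3 (0.043), Atxn3 (0.045) and Topbp1 (0.056). These 5 were picked by the same 4 values that limma tests, so their limma adjusted p (between 0.151 and 0.273) follows largely from that choice.

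Nuclear cofactors of the exosome were examined next. The helicase Mtrex feeds RNA into the complex within adaptor complexes, and cap-binding proteins tie those adaptors to new transcripts. Of 17 genes, 3 rose, 1 fell and 13 did not pass (12.2% of all genes were called in either direction), with a median difference of 0.24 and 16 positive differences. The genes that rose encode the nuclear cap-binding complex and its partner, which also act in splicing and RNA export. Ncbp1 stood at 0.35 and 0.31 in KO lines 2 and 4, and at -0.64 and -0.31 in WT lines 5 and 6 (difference 0.80 ± 0.131 SE, limma adjusted p = 0.0277). Ncbp2 stood at 0.42 and 0.26 in KO lines, and at -0.59 and -0.26 in WT lines (0.76 ± 0.139, adjusted p = 0.0339), and missed the threshold without its _s_at and _x_at probe sets (0.67, adjusted p = 0.0536). Srrt, also called Ars2, stood at 0.33 and 0.21 in KO lines, and at -0.29 and -0.21 in WT lines (0.52 ± 0.0908, adjusted p = 0.0319). In all 3 the genotypes were separate, and WT line 5 was the lowest line. Over the 17 genes, both KO lines lay above both WT lines at 13 (28.7% of all genes). WT line 5 was the lowest line at 13 of the 17 (30.4% of all genes).

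Nop53, which recruits Mtrex to precursors of the large ribosomal subunit, fell in KO lines. It stood at -0.19 and -0.21 in KO lines 2 and 4, and at 0.18 and 0.21 in WT lines 5 and 6 (-0.40 ± 0.0791 SE, limma adjusted p = 0.0399), and missed the threshold without its _s_at and _x_at probe sets (-0.29, adjusted p = 0.0856). Here WT line 5 was not the low line. Mtrex itself differed by 0.23 ± 0.111 (adjusted p = 0.26), and the Exosc10 partners Mphosph6 and C1d by 0.18 ± 0.102 and 0.24 ± 0.0909 (adjusted p = 0.322 and 0.155). Zfc3h1, a scaffold of the pathway for polyadenylated nuclear RNA, differed by 0.36 ± 0.0859 and Rbm7, of the nuclear exosome targeting complex, by 0.19 ± 0.0867 (adjusted p = 0.0594 and 0.226). Of the cytoplasmic partners, which include the Ski helicase complex, 0 of 5 were called (12.2% of all genes). Before adjustment (p under 0.05), 2 passed upward and 1 downward, against 14.3% and 15.2% of all genes. Skiv2l, the Ski helicase, had the smallest p (-0.37 ± 0.0912, adjusted p = 0.0632).

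**Figure D4:**
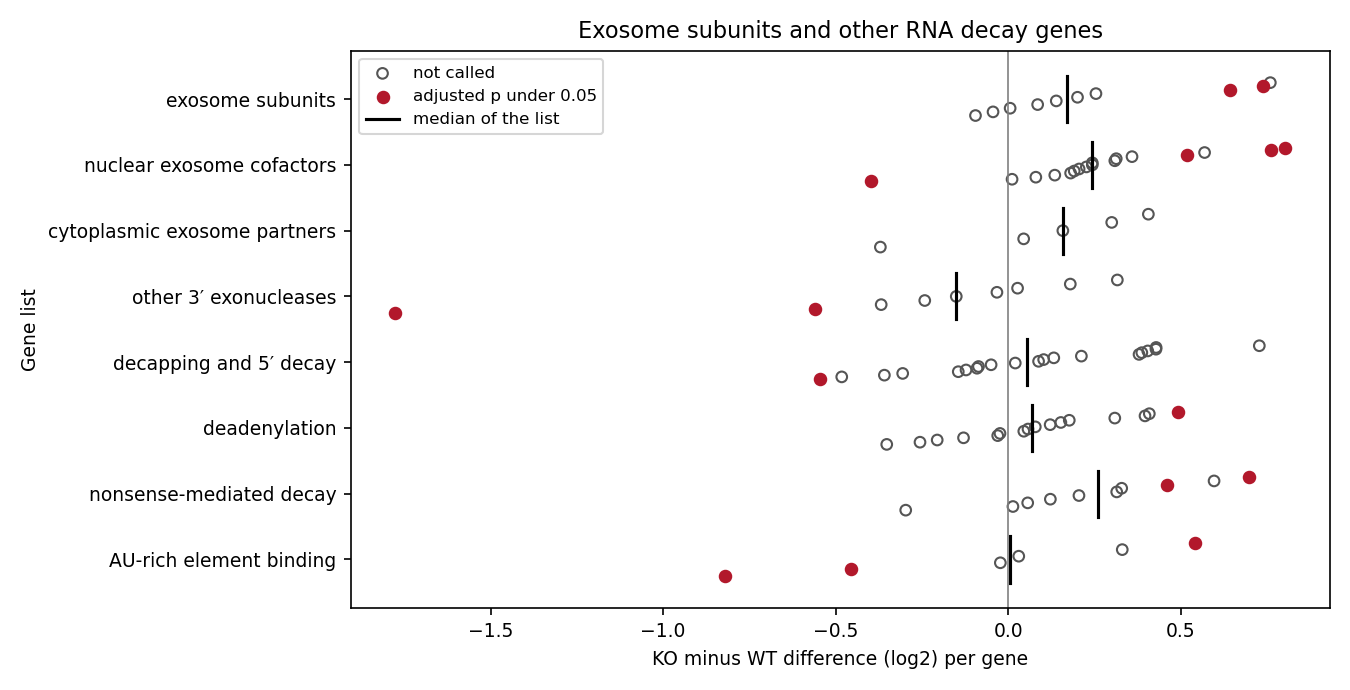
KO minus WT difference (log2) of each gene in the exosome list and in 7 other RNA decay lists, with called genes filled and the list's median as a bar. Isg20 lies farthest from 0 (-1.78), and the nuclear cofactors lie above 0 apart from Nop53.

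Among other exonucleases that work from the 3′ end, 0 rose, 2 fell and 7 did not pass (5.21% of all genes rose and 6.95% fell), with a median difference of -0.15. Isg20, an interferon-induced nuclease, fell 3.43-fold in KO lines, at -1.24 and -0.74 in KO lines 2 and 4 against 0.83 and 0.74 in WT lines 5 and 6 (-1.78 ± 0.178 SE, limma adjusted p = 0.0154). Parn, a deadenylase that also trims noncoding RNA, fell as well, at -0.19 and -0.38 in KO lines against 0.19 and 0.35 in WT lines (-0.56 ± 0.11, adjusted p = 0.0396). The genotypes did not overlap at either gene. Eri1 and Isg20l2, which like the exosome act on the end of a small ribosomal RNA, differed by -0.033 ± 0.176 and 0.32 ± 0.101 without passing (adjusted p = 0.937 and 0.112).

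In decapping and decay from the 5′ end, 1 of 20 genes fell and 0 rose (6.95% and 5.21% of all genes). Nudt16, a decapping enzyme, differed by -0.55 ± 0.103 SE (limma adjusted p = 0.0361, but 0.0505 with its most variable probe set). The exonuclease genes Xrn1 and Xrn2 differed by -0.31 ± 0.152 and 0.10 ± 0.0804, which did not pass. In deadenylation 1 of 16 rose, Cnot11, a subunit of the CCR4-NOT complex (0.49 ± 0.0805, adjusted p = 0.0279), and 0 fell. Cnot11 missed the threshold with the median of its probe sets (adjusted p = 0.0524) and with the most variable one (0.0924). In nonsense-mediated decay 2 of 10 rose, Smg8 (0.70 ± 0.0983, adjusted p = 0.0215) and Smg5 (0.46 ± 0.101, adjusted p = 0.0498), both cofactors of the Upf1 pathway. That list had a median difference of 0.26, and both KO lines lay above both WT lines at 8 of the 10 (28.7% of all genes). Smg5 missed the threshold with array weights (adjusted p = 0.0544) and in 3 settings that summarise probe sets differently. Of 6 proteins that bind AU-rich elements, the stabilising factor Elavl1 rose (0.54 ± 0.0907, adjusted p = 0.0295), and Zfp36l1 (-0.82 ± 0.129, adjusted p = 0.0262) and Zfp36l2 (-0.45 ± 0.0802, adjusted p = 0.0321), which promote decay, fell. The other 3 did not pass. Zfp36 differed by 0.33 ± 0.135, in the opposite direction to Zfp36l1 and Zfp36l2. Khsrp differed by -0.023 ± 0.0785 and Hnrnpd by 0.031 ± 0.147. Over these 7 lists, 7 of 83 measured genes rose and 6 fell, against 5.21% and 6.95% of all genes, with a median difference of 0.12. With 1 line left out, calls were lost over all genes as well as among these 83, so that loss is not particular to them.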

How the data were processed

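Deposited log2 values were used for 4 mouse arrays, 2 KO and 2 WT lines. Per the submitters' processing notes, the authors used Affymetrix Expression Console and RMA (no version named). The log base was taken from the method. The deposited log2 values have a median of 0 across arrays at every probe set (tolerance 1e-06), by a centring step the labels do not describe, so genes carry no level and no filter on dim probes could be set. The series text names a smaller version of the array than the table, which held 45101 probe sets.

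Probe sets were named through the platform annotation: 34945 had 1 gene, 932 several, 9160 none, and 64 were controls. Entrez identifiers matched 34741 to RefSeq (GRCm38.p6) and changed 0 symbols. Gene values are means of all probe sets with 1 gene. A moderated linear model (limma 3.58.1, R 4.3.3; lmFit, then eBayes) gave KO minus WT with no covariate (2 residual and 3.04 prior degrees of freedom), with Benjamini-Hochberg adjustment over all genes, and separately over all probe sets that were not controls. The fit was tested on simulated data. The number of arrays limits the precision.

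Members, lists and motifs were chosen with earlier results of these data known. Named genes were all members, Exosc6, Phf12, up to 5 called genes of each other list (or the gene with the smallest p), and the 5 genes nearest to the mean exosome profile. Mtrex, Mphosph6, C1d, Zfc3h1, Rbm7, Eri1, Isg20l2, Xrn1, Xrn2, Dis3l and Dis3l2 were added for their roles, after their values were seen. Zfp36, Khsrp and Hnrnpd were likewise added to complete their list.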

Additional observations from a re-analysis of the deposited data

How the results depend on the processing

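The counts and medians of the exosome list, the counts of the other RNA decay lists as 1 group, and the genes and probe sets named by the rule were refitted after quantile normalisation between arrays, with array weights, with robust eBayes and without each line, and the gene values also with the median of the probe sets, without probe sets ending in _s_at or _x_at, or with the most variable probe set. Probe sets were also fitted among those with 1 gene alone. Outside the fits that leave out a line, the number of exosome genes called higher stayed at 2 or 3, that of exosome probe sets at 2 or 3, and that of other RNA decay genes at 5 to 8 higher and 6 to 8 lower. Over all 18193 genes, limma called between 2063 and 2664 in either direction in these settings. Over all fitted probe sets it called between 3748 and 4604. The steady counts are therefore not particular to the listed genes. With any 1 line left out, the exosome counts were 0 in each fit for genes and for probe sets. The other RNA decay counts were then 0 higher and 0 to 1 lower, with 1 residual degree of freedom and a lone line assumed to vary like the other genotype. Calls were lost over all genes and all probe sets in these fits as well, so that loss is not particular to the listed genes. With 1 line left out, the median difference of the exosome genes lay between 0.054 and 0.31, and that of the probe sets between 0.061 and 0.30 (without WT line 6).

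Signs turned for uncalled values alone. Exosc10 was -0.0059 after quantile normalisation, -0.0015 without _s_at and _x_at probe sets and -0.0030 with its most variable probe set, and between -0.034 and 0.045 with 1 line left out. With 1 line left out, Exosc5 lay between -0.082 and 0.36, Exosc7 between -0.23 and 0.14, and Exosc8 between -0.095 and 0.27. Among probe sets these ranges were -0.030 to 0.23 for Exosc8 1420115_at, -0.16 to 0.30 for Exosc8 1428291_at, -0.17 to 0.17 for Exosc10 1423587_a_at, -0.087 to 0.14 for Exosc10 1431832_x_at, -0.095 to 0.061 for Exosc10 1437294_at, -0.055 to 0.087 for Exosc10 1454021_a_at, -0.28 to 1.03 for Exosc1 1432052_at and -0.058 to 0.099 for Exosc4 1437712_x_at. The cause was not tested. Dis3 as a probe set passed after quantile normalisation (adjusted p = 0.0404) and among probe sets with 1 gene (0.0488). Phf12 as a gene passed after quantile normalisation (adjusted p = 0.0372), with array weights (0.0481), with robust eBayes (0.047) and with its most variable probe set (0.0185). Outside the fits that leave out a line, 5 calls of other RNA decay genes were lost: Smg5 in 4 settings (adjusted p between 0.0506 and 0.0632), Cnot11 in 2 (0.0524 and 0.0924), and Ncbp2 (0.0536), Nop53 (0.0856) and Nudt16 (0.0505) in 1 each. Marker and proliferation counts, and the genes added for their roles or to complete a list, were not refitted. No paired analysis was possible because the KO and WT lines share no replicate number. Background correction and a filter on dim probes were not run, since only centred values were used.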
